A study of Homo sapiens with 10 samples.

Results

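Developmental homeobox genes outside the HOX clusters were followed in 3 human cancer cell lines that expressed PcTF, a synthetic Polycomb-based transcription factor. The genes were taken by symbol. A row of the expression tables was a member if its symbol was 1 of 15 family stems (ALX, BARX, DLX, EMX, GBX, IRX, LHX, MEIS, MSX, OTX, PITX, PRRX, TLX, the stem of the SINE class, or NKX with its cluster number) followed by a single final digit. The rule found 63 of the 23245 genes listed in each table, and it used no measured value. By class they were 30 NK-like genes (BARX, DLX, EMX, GBX, MSX, NKX and TLX), 10 paired-class genes (ALX, OTX, PITX and PRRX), 8 LIM genes (LHX), 9 TALE genes (IRX and MEIS) and 6 SINE genes.

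Homeobox genes encode transcription factors that bind DNA through a homeodomain, and different members lay down the eye, jaw, limb, forebrain, heart and skeleton of the embryo. Most are silent outside the tissue they help to build. In silent cells they are classic targets of the Polycomb system, in which one complex places methyl groups on lysine 27 of histone H3 (H3K27me3) and a second complex binds that mark through a chromodomain and keeps the gene off. PcTF joins the chromodomain of the human Polycomb protein CBX8 to a red fluorescent protein and to VP64, a viral activation domain, so that it can bind H3K27me3 and recruit activators. ΔTF (dTF in the sample labels) is a truncated form that lacks the chromodomain.

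Each of K562 (from a chronic myelogenous leukaemia), U-2 OS (from an osteosarcoma) and SK-N-SH (from a neuroblastoma) has 1 library of cells transfected with 2 µg of PcTF plasmid and 1 of mock-transfected cells that got the transfection reagents and no plasmid, grown afterwards for at most 48 h (K562) or at most 96 h (the other lines). The plasmid was not under repression in these lines, and a transfected culture mixes cells with and without plasmid. The paper reports that PcTF transcripts and the share of fluorescent cells declined with time after transfection. At the last times with a signal, fluorescent cells were a minority in each line. U2OS-PcTF and U2OS-ΔTF are U-2 OS lines with the transgene integrated in a chromosome, and both were given 1 µg/ml doxycycline for 96 h. The table of these lines holds 1 U2OS-ΔTF library and a PcTF column that is the mean of 3 libraries, namely, by the labels, the 2 U2OS-PcTF libraries and the transfected U-2 OS PcTF library. Levels are FPKM, reads scaled to gene length and library depth as computed by the authors. Each condition of a line has 1 library in these columns, or a mean, so no difference within a line was tested against the spread between cultures. Intervals below are exact 95% binomial intervals on estimated reads and cover counting error only. In bulk RNA, fewer cells that express a gene and less RNA per cell cannot be told apart.

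The libraries were shallow, at an estimated 4273640 to 7385100 reads, and listed 13246 to 16089 genes above 0. The PcTF library was the deeper one in K562 (4666760 reads in mock, 7385100 in PcTF cells) and in SK-N-SH (5180830 and 6375520). In U-2 OS the PcTF library was the shallower one (4869370 and 4273640), and U2OS-ΔTF had 5777470. The part of depth in differences from 0 was not tested. CBX8, whose chromodomain is part of PcTF, stood at 0.610 FPKM in mock and 6.43 in PcTF U-2 OS cells, 1.59 and 14.3 in K562, 0.287 and 8.85 in SK-N-SH, 1.28 in U2OS-ΔTF and 5.43 in the PcTF mean. It was higher in every PcTF column. Of 7 erythroid markers all 7 passed 1 FPKM in both K562 libraries, with sums of 7296 FPKM in mock and 21312 in PcTF cells. Of 7 neuroblastoma markers 6 passed 1 FPKM in both SK-N-SH libraries, with TH at 0. Of 6 osteoblast and mesenchymal markers 4 passed it in the U-2 OS columns, with COL1A2 and TWIST1 at 0. The same list did not set U-2 OS apart from SK-N-SH, where 5 of 6 passed it and the sum was 752 FPKM in mock cells against 313 in mock U-2 OS cells.

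The upstream sequence is shown for 5 members whose levels carry much of what follows. PITX1 had the largest fold rise in K562 among members detected in mock cells, PRRX1 fell and MSX1 rose in U-2 OS, and DLX1 and DLX2 are neighbours of unlike level in K562. Each run is the 250 bases before the RefSeq start of the gene (build GRCh38.p14), 5′ to 3′ on the strand of the gene, with CG dinucleotides in capitals, because CG-rich start regions are where mammalian Polycomb complexes gather.
PITX1, chr5:135034229-135034478, minus strand: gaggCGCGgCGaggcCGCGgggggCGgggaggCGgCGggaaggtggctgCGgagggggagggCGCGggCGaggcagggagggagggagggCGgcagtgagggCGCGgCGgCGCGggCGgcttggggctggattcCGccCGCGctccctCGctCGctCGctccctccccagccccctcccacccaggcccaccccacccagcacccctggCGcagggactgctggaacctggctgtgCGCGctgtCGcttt
PRRX1, chr1:170663881-170664130, plus strand: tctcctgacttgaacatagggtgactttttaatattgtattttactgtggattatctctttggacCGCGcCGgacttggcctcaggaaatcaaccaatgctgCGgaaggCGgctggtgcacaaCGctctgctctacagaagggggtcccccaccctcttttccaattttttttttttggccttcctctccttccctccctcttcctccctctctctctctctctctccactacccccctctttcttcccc
MSX1, chr4:4859415-4859664, plus strand: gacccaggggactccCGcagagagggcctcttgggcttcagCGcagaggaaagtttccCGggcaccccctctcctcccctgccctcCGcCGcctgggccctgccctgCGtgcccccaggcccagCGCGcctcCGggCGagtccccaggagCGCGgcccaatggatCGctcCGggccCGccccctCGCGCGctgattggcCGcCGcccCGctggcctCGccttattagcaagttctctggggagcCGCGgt
DLX1, chr2:172085257-172085506, plus strand: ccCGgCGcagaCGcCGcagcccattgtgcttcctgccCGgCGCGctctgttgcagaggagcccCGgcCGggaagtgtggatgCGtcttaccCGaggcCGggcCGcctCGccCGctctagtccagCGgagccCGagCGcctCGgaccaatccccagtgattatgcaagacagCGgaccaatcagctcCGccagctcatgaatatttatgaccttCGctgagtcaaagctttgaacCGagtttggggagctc
DLX2, chr2:172102901-172103150, minus strand: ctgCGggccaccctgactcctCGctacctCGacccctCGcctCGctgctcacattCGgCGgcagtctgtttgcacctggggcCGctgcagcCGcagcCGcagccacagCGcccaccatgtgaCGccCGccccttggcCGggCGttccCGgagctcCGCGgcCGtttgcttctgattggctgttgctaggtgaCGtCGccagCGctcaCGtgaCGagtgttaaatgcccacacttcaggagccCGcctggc

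These windows hold 29 CG in PITX1, 24 in MSX1, 25 in DLX2, 23 in DLX1 and 6 in PRRX1. RefSeq gave such a window for 40 of the 63 members, and 32 of the 40 (80%) held 15 or more CG, against 57.8% of 13990 listed genes with a window. The median was 22.5 CG for members and 17 for all genes. Members that reached 1 FPKM in some column (25 windows, median 22) and those that did not (15 windows, median 23) had like medians, with 80% of each at 15 CG or more. The homeodomain core TAATTA, searched on both strands, was in 2 of the 40 windows (EMX2 and MSX2, 5.00%) and in 3.22% of all windows. The TATA box letters TATAAA were in 0 of 40 and in 9.06% of all windows. A match is a match of letters and not a binding site.

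**Figure D1:**
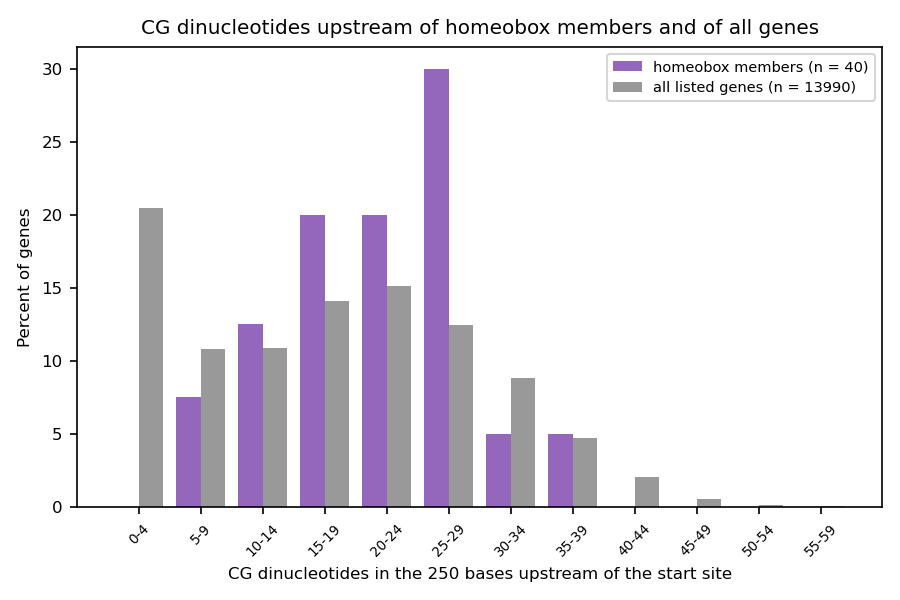
Share of genes (y axis, percent) by the number of CG dinucleotides in the 250 bases upstream of the start site (x axis, bins of 5) for 40 homeobox members (purple bars) and 13990 listed genes (grey bars). No member has fewer than 5 CG, while 20.5% of all listed genes do, and the tallest purple bar (30%) is at 25 to 29 CG.

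In mock-transfected cells most members were below 1 FPKM. At 1 FPKM or more there were 16 members in U-2 OS, 8 in K562 and 14 in SK-N-SH, that is 25.4%, 12.7% and 22.2% of the 63, against 49.1%, 43.9% and 48.5% of all listed genes. Above 0 there were 44, 18 and 26 members, or 69.8%, 28.6% and 41.3%, against 69.2%, 57.0% and 66.5% of all listed genes. Members were thus detected about as often as all genes in U-2 OS, and less often in K562 and SK-N-SH. SIX4 and MEIS2 were the 2 members at 1 FPKM or more in all 3 lines, and 38 members reached it in none. Of these 38, 9 (BARX1, GBX1, LHX3, NKX1-2, NKX2-4, NKX2-6, NKX6-2, NKX6-3 and SIX6) were listed at 0 in all 7 single libraries. A single gene made up much of the summed level in each line. In mock cells PRRX1 was 60.4% of the summed FPKM of members in SK-N-SH, MEIS2 was 25.1% in K562 and SIX4 was 35.7% in U-2 OS.

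**Figure D2:**
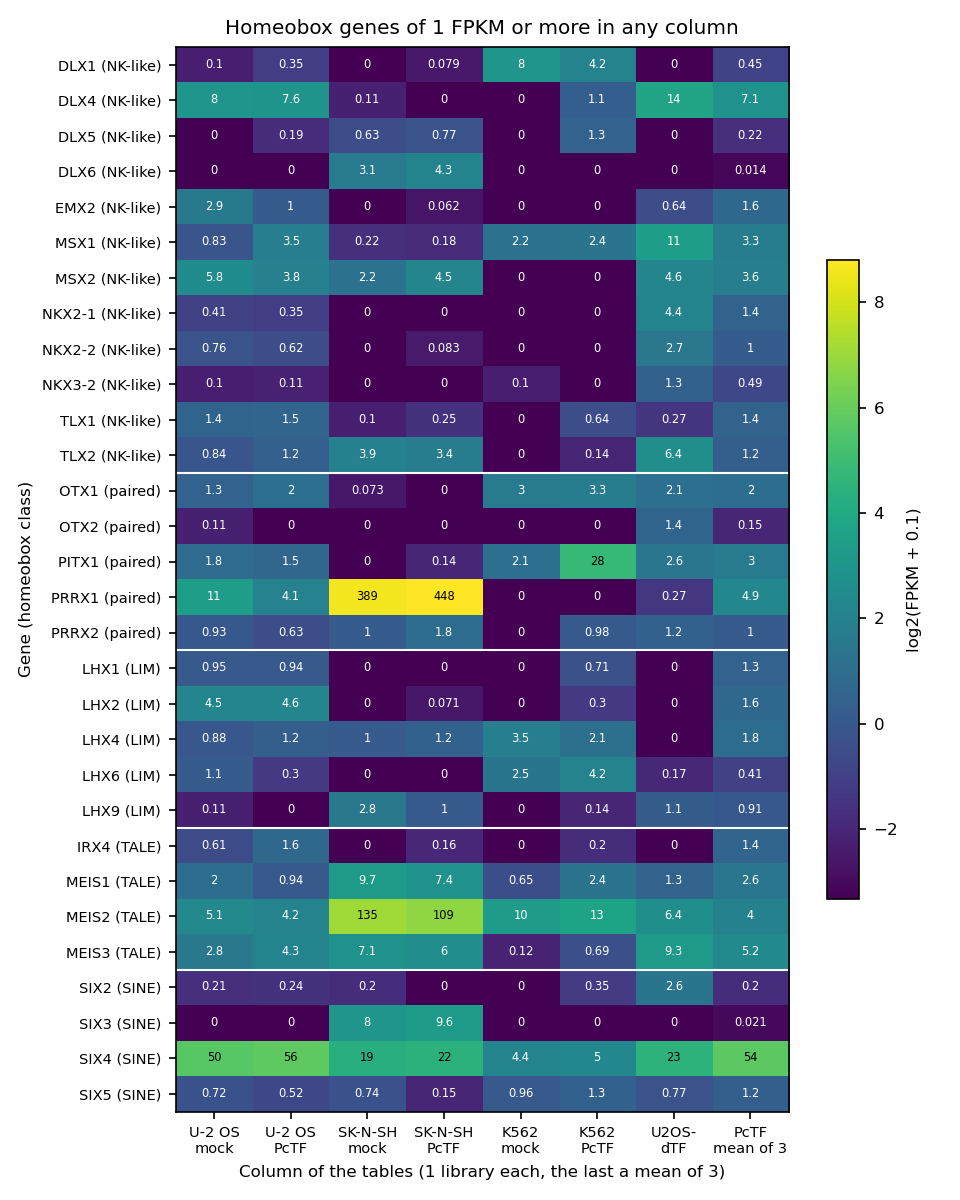
FPKM of 30 members at 1 FPKM or more in any column (rows, grouped by homeobox class) in the 7 single libraries and the PcTF mean (columns). Colour is log2(FPKM + 0.1) and each cell prints the FPKM. Some rows are brightest in 1 line, such as DLX4 in the U-2 OS columns, PRRX1 and SIX3 in SK-N-SH and PITX1 in PcTF K562 cells. SIX4 and MEIS2 are at 1 FPKM or more in every column.

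Among SINE genes, which act with EYA co-activators in muscle, kidney and sensory organ development, SIX4 stood at 49.5 and 55.7 FPKM in mock and PcTF U-2 OS cells, 4.36 and 4.98 in K562, 19.5 and 22.2 in SK-N-SH, 23.1 in U2OS-ΔTF and 54.3 in the PcTF mean. It was at 1 FPKM or more in all columns and lowest in K562. SIX3, a forebrain and eye gene, stood at 0 and 0 FPKM in mock and PcTF U-2 OS cells, 0 and 0 in K562, 7.96 and 9.57 in SK-N-SH, 0 in U2OS-ΔTF and 0.0209 in the PcTF mean. SIX2, which keeps kidney progenitors undifferentiated and lies beside SIX3, stood at 0.210 and 0.239 FPKM in mock and PcTF U-2 OS cells, 0 and 0.346 in K562, 0.197 and 0 in SK-N-SH, 2.56 in U2OS-ΔTF and 0.201 in the PcTF mean. SIX3 was thus a gene of SK-N-SH, and SIX2 passed 1 FPKM in U2OS-ΔTF alone.

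Of the paired class, PRRX1, a gene of limb and craniofacial mesenchyme, stood at 11.1 and 4.06 FPKM in mock and PcTF U-2 OS cells, 0 and 0 in K562, 389 and 448 in SK-N-SH, 0.273 in U2OS-ΔTF and 4.93 in the PcTF mean. No other member reached such a level, and it was listed at 0 in both K562 libraries. PITX1, which specifies the hindlimb and the pituitary, stood at 1.78 and 1.50 FPKM in mock and PcTF U-2 OS cells, 2.06 and 28.2 in K562, 0 and 0.143 in SK-N-SH, 2.61 in U2OS-ΔTF and 3.01 in the PcTF mean. PITX1 rose above 10 FPKM in PcTF K562 cells alone. OTX1, a gene of the forebrain and sensory organs, stood at 1.31 and 2.02 FPKM in mock and PcTF U-2 OS cells, 2.98 and 3.30 in K562, 0.0725 and 0 in SK-N-SH, 2.08 in U2OS-ΔTF and 2.00 in the PcTF mean, with at most 1 read in either SK-N-SH library.

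TALE genes include the MEIS factors, DNA-binding partners of HOX and PBX proteins. MEIS2 stood at 5.07 and 4.17 FPKM in mock and PcTF U-2 OS cells, 10.3 and 12.8 in K562, 135 and 109 in SK-N-SH, 6.43 in U2OS-ΔTF and 3.97 in the PcTF mean. MEIS1, a gene of blood stem cells and many leukaemias, stood at 1.99 and 0.940 FPKM in mock and PcTF U-2 OS cells, 0.645 and 2.45 in K562, 9.69 and 7.40 in SK-N-SH, 1.33 in U2OS-ΔTF and 2.59 in the PcTF mean. MEIS3 stood at 2.78 and 4.30 FPKM in mock and PcTF U-2 OS cells, 0.121 and 0.687 in K562, 7.08 and 6.01 in SK-N-SH, 9.27 in U2OS-ΔTF and 5.25 in the PcTF mean. All 3 were highest in SK-N-SH, except that MEIS3 was higher still in U2OS-ΔTF. The 6 IRX genes, which pattern heart, limb and neural tube, stayed low, and IRX4 alone passed 1 FPKM, in PcTF-transfected U-2 OS cells and in the PcTF mean.

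LIM genes pattern neurons, pituitary and limb. LHX2, a gene of the eye and cortex, stood at 4.53 and 4.64 FPKM in mock and PcTF U-2 OS cells, 0 and 0.305 in K562, 0 and 0.0707 in SK-N-SH, 0 in U2OS-ΔTF and 1.62 in the PcTF mean. LHX4, a pituitary and motor neuron gene, stood at 0.881 and 1.16 FPKM in mock and PcTF U-2 OS cells, 3.50 and 2.13 in K562, 1.03 and 1.24 in SK-N-SH, 0 in U2OS-ΔTF and 1.85 in the PcTF mean. LHX6, which directs cortical interneurons and tooth mesenchyme, stood at 1.06 and 0.302 FPKM in mock and PcTF U-2 OS cells, 2.49 and 4.23 in K562, 0 and 0 in SK-N-SH, 0.167 in U2OS-ΔTF and 0.408 in the PcTF mean. All 3 were higher in both U-2 OS transfection libraries than in U2OS-ΔTF, where LHX2 and LHX4 were at 0. LHX4 overlaps LOC100527964, whose values are given below with the stable lines. LHX9, a gonad gene, stood at 0.109 and 0 FPKM in mock and PcTF U-2 OS cells, 0 and 0.144 in K562, 2.77 and 1.00 in SK-N-SH, 1.10 in U2OS-ΔTF and 0.908 in the PcTF mean, with its highest value in mock SK-N-SH cells.

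The NK-like class held the DLX genes of jaw and forebrain. DLX4 stood at 8.01 and 7.63 FPKM in mock and PcTF U-2 OS cells, 0 and 1.12 in K562, 0.107 and 0 in SK-N-SH, 13.6 in U2OS-ΔTF and 7.11 in the PcTF mean. DLX1 stood at 0.103 and 0.354 FPKM in mock and PcTF U-2 OS cells, 7.99 and 4.16 in K562, 0 and 0.0790 in SK-N-SH, 0 in U2OS-ΔTF and 0.447 in the PcTF mean. DLX6 stood at 0 and 0 FPKM in mock and PcTF U-2 OS cells, 0 and 0 in K562, 3.11 and 4.30 in SK-N-SH, 0 in U2OS-ΔTF and 0.0137 in the PcTF mean. Each line used a different DLX gene most, DLX4 in U-2 OS, DLX1 in K562 and DLX6 in SK-N-SH. MSX1, which holds limb and tooth mesenchyme in an undifferentiated state, stood at 0.827 and 3.50 FPKM in mock and PcTF U-2 OS cells, 2.22 and 2.41 in K562, 0.222 and 0.180 in SK-N-SH, 10.6 in U2OS-ΔTF and 3.27 in the PcTF mean. MSX2, its relative in skull sutures, stood at 5.82 and 3.84 FPKM in mock and PcTF U-2 OS cells, 0 and 0 in K562, 2.21 and 4.52 in SK-N-SH, 4.56 in U2OS-ΔTF and 3.55 in the PcTF mean. MSX1 was the MSX gene of K562 and MSX2 that of SK-N-SH, and U-2 OS had both.

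NKX2-1, the thyroid and lung factor, stood at 0.414 and 0.354 FPKM in mock and PcTF U-2 OS cells, 0 and 0 in K562, 0 and 0 in SK-N-SH, 4.36 in U2OS-ΔTF and 1.35 in the PcTF mean. NKX2-2, a gene of ventral neural tube and pancreatic islet, stood at 0.764 and 0.622 FPKM in mock and PcTF U-2 OS cells, 0 and 0 in K562, 0 and 0.0833 in SK-N-SH, 2.67 in U2OS-ΔTF and 1.05 in the PcTF mean. Both NKX genes were below 1 FPKM in mock and PcTF U-2 OS cells and passed it in U2OS-ΔTF and the PcTF mean. In SK-N-SH or K562 they had at most 0.0833 FPKM. TLX2, an enteric neuron gene, stood at 0.841 and 1.20 FPKM in mock and PcTF U-2 OS cells, 0 and 0.138 in K562, 3.95 and 3.37 in SK-N-SH, 6.37 in U2OS-ΔTF and 1.17 in the PcTF mean. EMX2, a gene of the cortex and urogenital tract, stood at 2.89 and 1.04 FPKM in mock and PcTF U-2 OS cells, 0 and 0 in K562, 0 and 0.0623 in SK-N-SH, 0.641 in U2OS-ΔTF and 1.62 in the PcTF mean. EMX2 was confined to U-2 OS columns apart from 0.0623 FPKM in PcTF SK-N-SH cells.

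The members PRRX2, IRX4, TLX1, OTX2, DLX5, LHX1, NKX3-2 and SIX5 also reached 1 FPKM somewhere and had highest values of 1.25 FPKM (SIX5, PcTF K562) to 1.84 (PRRX2, PcTF SK-N-SH). Of all 63 members, 29 were below 1 FPKM in every column.

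The first question was which members differed in U-2 OS cells collected up to 96 h after transfection with PcTF plasmid. By deposited FPKM, 10 of 63 members were 2-fold or more higher than in mock cells and 14 were 2-fold or more lower, a member at 0 on one side included. Over all listed genes the shares were 13.4% higher and 9.18% lower, against 15.9% and 22.2% of members. Among genes below 1 FPKM in mock cells, 10 of 47 members were higher and 9 lower, against 19.0% and 11.8% of all genes. The median log2(FPKM + 0.1) difference was 0 for members and 0 for all genes, with 15 members at 0 in both libraries. Among genes at 1 FPKM or more in both, the median log2 ratio was -0.02 for 14 members and 0.06 for all genes. Many of these members rest on a handful of reads. Of the 10 higher members 4 were at 0 in mock cells, and of the 14 lower 7 were at 0 in the shallower PcTF library. With the counting interval of the reads also off 0, the counts were 2 higher and 5 lower, where all genes gave 6.9% and 3.19% and members 3.17% and 7.94%. Such shares of all genes, here and below, are over the 18002 genes with estimated reads. Reads of members and of other genes were estimated in different ways, as described under processing.

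PRRX1 (chr1:170633313-170708541, hg19) fell from 11.1 to 4.06 FPKM, or from about 208 to 67 reads (log2 ratio -1.45, 95% counting interval -1.87 to -1.04). EMX2 went from about 34 to 11 reads (log2 ratio -1.44, 95% counting interval -2.57 to -0.42). Its antisense neighbour EMX2OS, which overlaps it on the other strand, moved from 1.10 to 0.494 FPKM, and without stated strand information the reads of the pair cannot be told apart. LHX6 went from 16 to 4 reads (log2 ratio -1.81, 95% counting interval -3.85 to -0.18) and MEIS1 from 29 to 12 reads (log2 ratio -1.08, 95% counting interval -2.19 to -0.07). These 4 are among the 5 members whose interval lay below 0.

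MSX1 (chr4:4861392-4865660) had the largest rise among members detected in mock cells, from 7 to 26 reads (log2 ratio 2.08, 95% counting interval 0.84 to 3.53), a 4.23-fold difference in FPKM. NKX6-1, a gene of islet beta cells and motor neurons, had 0 reads in mock and about 7 in PcTF cells, at least 2.66-fold higher if the zero is set to 3 reads. IRX4 had 6 and 14 reads, with an interval that spans 0. SIX4 (1517 and 1497 reads, log2 ratio 0.17, 95% counting interval 0.07 to 0.27) was higher by less than 2-fold. LHX2, at 49 and 44 reads, and DLX4, at 70 and 59, had intervals that span 0. The osteoblast and mesenchymal marker list had a sum of 196 FPKM in the PcTF library and 313 in mock. Most of this sum is SPARC, at 271 in mock and 171 in PcTF cells, and COL1A1, at 28.7 and 11.3, was the only one of the 6 lower by 2-fold or more. RUNX2 stood at 7.30 and 7.86, PDGFRB at 6.39 and 5.63, and 2 of the 6 at 0 in both. The part of these differences in the falls of members was not tested.

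**Figure D3:**
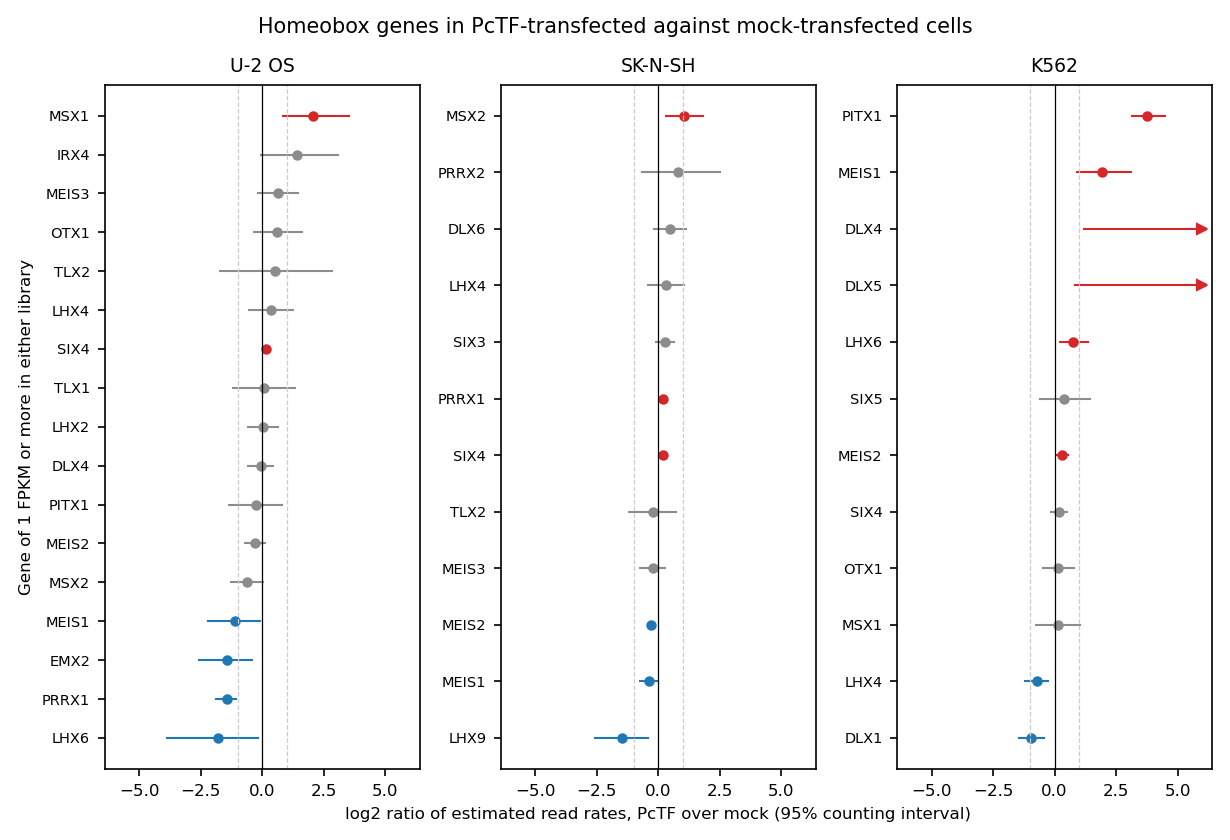
Log2 ratio of estimated read rates, PcTF over mock (x axis), with 95% counting intervals, for the members shown, at 1 FPKM or more in either library of a line (y axis), 1 panel per line. Points are single pairs of libraries, red or blue marks an interval above or below 0, grey spans 0, an arrow is an open interval where one library had 0 reads, and dashed lines mark 2-fold. LHX6 and PRRX1 sit at the bottom in U-2 OS (log2 ratios -1.81 and -1.45) and PITX1 at the top in K562 (3.78).

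In SK-N-SH cells the abundant members differed by less than 2-fold. Deposited FPKM put 13 members 2-fold or more higher and 7 lower, or 20.6% and 11.1%, where all genes gave 10.3% and 6.24%. Of the 13 that were higher, 11 were at 0 in mock cells, and 12 were below 1 FPKM there. The mock library was the shallower of this pair, and the part of depth in these calls was not tested. Among genes below 1 FPKM in mock cells, 12 of 49 members were higher and 5 lower, against 17.4% and 9.21% of all genes. With the counting interval off 0 as well, 1 member was higher and 3 were lower (1.59% and 4.76%, against 3.26% and 1.24% of all genes). The median log2(FPKM + 0.1) difference was 0 for members and for all genes, with 26 members at 0 in both libraries. Among genes at 1 FPKM or more in both, the median log2 ratio was 0.19 for 13 members and 0.09 for all genes.

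MSX2 (chr5:174151575-174157902) was the member that rose, from about 23 to 58 reads (log2 ratio 1.04, 95% counting interval 0.32 to 1.80). LHX9 fell from 27 to 12 reads (log2 ratio -1.47, 95% counting interval -2.58 to -0.44). SIX5, a homeobox gene beside the myotonic dystrophy locus, went from 12 to 3 reads (log2 ratio -2.30, 95% counting interval -4.76 to -0.41). Both concern members of at most 2.77 FPKM. Of the abundant genes, PRRX1 had about 7781 and 11018 reads (log2 ratio 0.20, 95% counting interval 0.16 to 0.24) and MEIS2 about 3693 and 3675 (log2 ratio -0.31, 95% counting interval -0.37 to -0.24). These intervals are narrow because of the many reads. PRRX2, DLX6, SIX3 and LHX4, the other largest rises by the naming rule, had intervals that span 0.

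K562 cells, collected up to 48 h after transfection, had the most members on the higher side among the transfected lines. By deposited FPKM 21 were 2-fold or more higher and 3 lower, or 33.3% and 4.76% of members. All listed genes leaned the same way in this pair of libraries, with 24.9% higher and 9.08% lower. Their median shift among genes at 1 FPKM or more in both was 0.29 on the log2 scale, against 0.09 in SK-N-SH and 0.06 in U-2 OS. Of the 21 members, 17 were at 0 in mock cells. The mock library had an estimated 4666760 reads and the PcTF library 7385100, with 13246 and 14975 genes above 0. The part of this difference in depth in the calls from 0 was not tested. Among genes below 1 FPKM in mock cells, 20 of 55 members were higher, against 27.9% of all genes. With the counting interval off 0 as well, 8 members were higher (12.7%, all genes 18.4%) and 0 were lower (0%, all genes 6.83%).

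PITX1 (chr5:134363424-134369964) stood out, from 21 to 455 reads (log2 ratio 3.78, 95% counting interval 3.15 to 4.48), or 13.7-fold in FPKM. MEIS1 (chr2:66662532-66799891) rose from 9 to 54 reads (log2 ratio 1.92, 95% counting interval 0.89 to 3.13). ALX4, a gene of skull and limb, rose from 5 to 37 reads (log2 ratio 2.23, 95% counting interval 0.87 to 3.93). All 3 lie above the shift of all genes, the first by the widest margin. LHX1, DLX4 and DLX5 had 0 reads in mock cells and 17, 15 and 12 in PcTF cells, at least 3.58-fold, 3.16-fold and 2.53-fold higher with the zero set to 3 reads. TLX1, with 9 reads against 0, and PRRX2, with 8 against 0, had intervals whose lower ends were only 0.32 and 0.11. LHX6 (36 and 97 reads, log2 ratio 0.77, 95% counting interval 0.20 to 1.36) was higher by less than 2-fold.

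Some members went the other way or stayed put in K562. DLX1 (chr2:172950208-172954401), the highest DLX gene there, had 74 and 61 reads (log2 ratio -0.94, 95% counting interval -1.45 to -0.43), just under a 2-fold fall. LHX4 had 84 and 80 (log2 ratio -0.73, 95% counting interval -1.19 to -0.27). MSX1, OTX1 and SIX4 had intervals that span 0. The sum of erythroid markers was higher in the PcTF library, as given above. RUNX2 of the osteoblast list stood at 9.13 FPKM in mock and 0.128 in PcTF cells, and TWIST1 and PDGFRB at 0 and 0.0388 in mock and 0.922 and 0.538 in PcTF cells. The U-2 OS list as a whole had sums of 17.6 FPKM in mock and 15.7 in PcTF K562 cells, and the part of these shifts in the members' values was not tested.

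Across the 3 transfected lines, which share no library, ALX4 and IRX4 were 2-fold or more higher in all 3 (3.17% of members, 1.14% of all genes). ALX4 had 1 and 3 reads in U-2 OS and 0 and 3 in SK-N-SH, and IRX4 had 0 and 3 in K562 and 0 and 2 in SK-N-SH, so in those lines the call rests on 3 reads or fewer. In 2 or more lines 10 members were higher (among them ALX4, DLX1, DLX3, DLX5, IRX4, LHX2, PITX1 and TLX1), 15.9% of members against 9.29% of all genes. DLX1 and DLX3 had 3 reads or fewer in each line where they were called higher. None of the 10 had its read interval above 0 in 2 lines. On the lower side 2 members (IRX6 and LHX9) were called in 2 or more lines, 3.17% against 2.71%, and 0 in all 3, where all genes gave 0.185%. MEIS1 was called in opposite directions, lower in U-2 OS (29 to 12 reads) and higher in K562 (9 to 54), and in SK-N-SH it had 150 and 141. PITX1, so much higher in K562, had 19 and 14 reads in U-2 OS and 0 and 2 in SK-N-SH.

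The stable lines asked whether PcTF made from a chromosomal gene differs from ΔTF. In the PcTF mean against U2OS-ΔTF, 30 members were 2-fold or more higher and 7 lower, or 47.6% and 11.1%. All listed genes gave 40.4% and 9.84%. Among genes below 1 FPKM in U2OS-ΔTF, 27 of 42 members were higher and 0 lower, against 53.9% and 2.86% of all genes. Of the 30, 23 were at 0 in the ΔTF library, which a mean over 3 libraries can exceed through a single read in any of them. The median log2(FPKM + 0.1) difference was 0.31 for members and 0.30 for all genes. Among genes at 1 FPKM or more in both columns, the median log2 ratio was -0.29 for 17 members and 0.31 for all 10318. With the stable libraries alone it was -0.087 for 18 members and 0.395 for all such genes. With the transfected library taken out of the mean, 31 members were higher and 6 lower, where all genes gave 39.9% and 9.39%, and 29 of the 30 and 6 of the 7 were the same members.

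LHX4 and LHX1 were at 0 in U2OS-ΔTF and at 1.85 and 1.30 FPKM in the PcTF mean. LOC100527964, which overlaps LHX4, stood at 31.4 FPKM in U2OS-ΔTF and 3.95 in the mean. Its strand was not found, and how reads of the overlap were divided between these genes is not known, also where LHX4 is at 0. PRRX1 was at 0.273 and 4.93 FPKM and IRX4 at 0 and 1.43. For LHX2, at 0 and 1.62, the transfected library gave 95.4% of that value and the 2 stable libraries averaged 0.111 FPKM. For 7 of the 52 members above 0 in the mean, 60% or more came from the transfected library. On the lower side SIX2 was at 2.56 in U2OS-ΔTF and 0.201 in the mean, OTX2, a forebrain gene, at 1.39 and 0.147, TLX2 at 6.37 and 1.17, MSX1 at 10.6 and 3.27, and NKX2-1 at 4.36 and 1.35.

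Mock-transfected U-2 OS and U2OS-ΔTF cells both lack PcTF, and many members differed between them. In U2OS-ΔTF, 10 members were 2-fold or more higher than in mock cells and 23 lower (15.9% and 36.5%), where all genes gave 18.3% and 29.2%. With the counting interval off 0 as well, 9 were higher and 11 lower (14.3% and 17.5%, all genes 17.1% and 22.4%). The values come from 2 tables normalized separately. LHX2 had 49 reads in mock and 0 in U2OS-ΔTF, at least 19.4-fold lower with the zero set to 3 reads. PRRX1 had about 208 and 6 reads (log2 ratio -5.36, 95% counting interval -6.82 to -4.22). MSX1 had 7 and 107 reads (log2 ratio 3.69, 95% counting interval 2.59 to 5.04), and NKX2-1 4 and 50 (log2 ratio 3.40, 95% counting interval 1.95 to 5.33). Other large falls were LHX6 (16 and 3 reads) and EMX2 (34 and 9), and other large rises SIX2 (2 and 29), OTX2 (1 and 15) and TLX2 (4 and 36), each with an interval off 0.

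Each PcTF difference in U-2 OS can be set beside both controls. PRRX1 was lower in PcTF-transfected than in mock cells (4.06 and 11.1 FPKM) and higher in the stable PcTF libraries than in U2OS-ΔTF (5.36 and 0.273). EMX2, LHX6 and MEIS1 also lay 2-fold or more below the control in the first pair and above it in the second, while MSX1 lay above in the first (3.50 and 0.827) and below in the second (3.15 and 10.6). For PRRX1, EMX2, LHX6 and MSX1 both PcTF values fell between those of the 2 controls. The clone, the integrated transgene, doxycycline, the transfection reagents and ΔTF itself cannot be told apart in the gap between the controls.

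**Figure D4:**
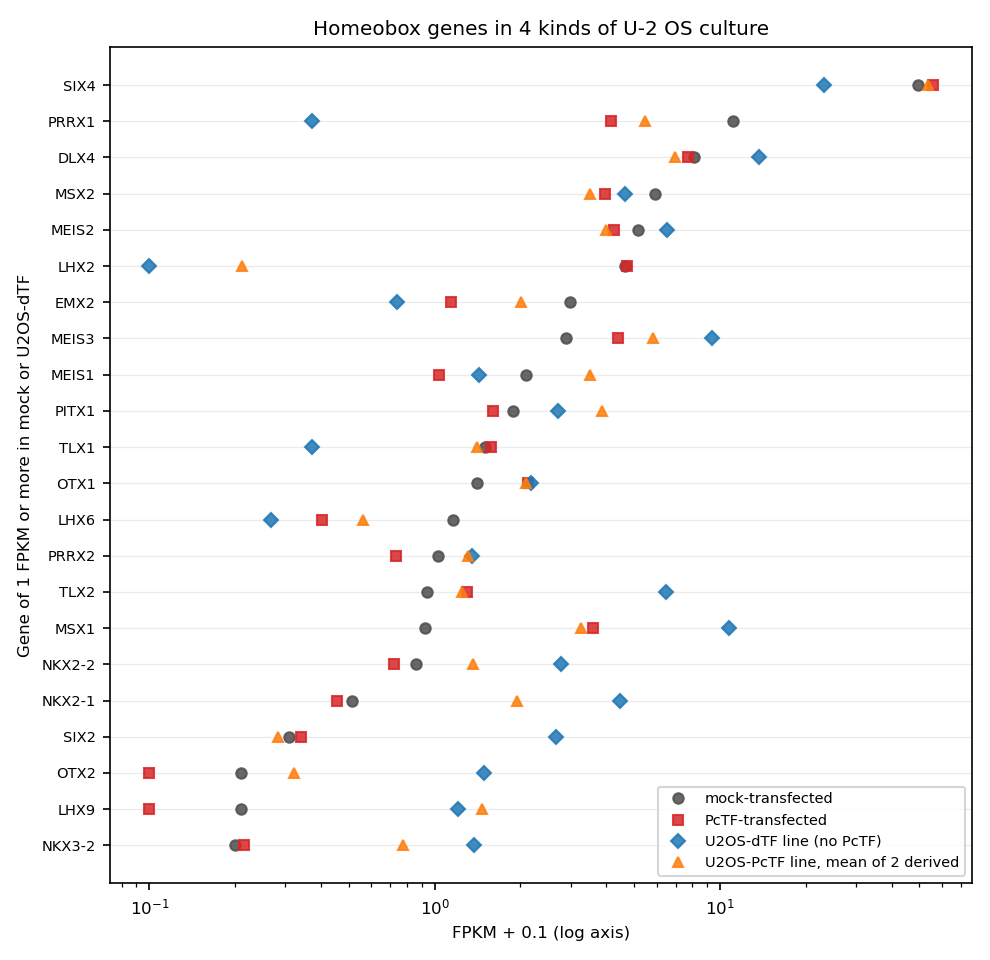
FPKM + 0.1 on a log axis (x) of 22 members at 1 FPKM or more in mock or U2OS-ΔTF cells (y), for mock-transfected (grey), PcTF-transfected (red), U2OS-ΔTF (blue) and the derived mean of the 2 U2OS-PcTF libraries (orange), 1 point each. The gap between the controls, grey and blue, is wide for PRRX1, LHX2, MSX1 and SIX2, and for PRRX1 and MSX1 red and orange lie between them.

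Members that lie close together on a chromosome need not share a level. Of 10 pairs within 200 kb, DLX1 and DLX2 (chr2:172950208-172967478, 9.8 kb apart) stood at 7.99 and 0.305 FPKM in mock K562 cells, and both windows above are CG-rich. DLX3 and DLX4 (15 kb apart on chromosome 17) stood at 0.341 and 8.01 in mock U-2 OS cells. SIX2 and SIX3 (59.1 kb apart on chromosome 2) swapped, at 0.197 and 7.96 in mock SK-N-SH cells and 2.56 and 0 in U2OS-ΔTF. In each of these pairs 1 gene was far above the other. DLX5 and DLX6 (6.3 kb apart on chromosome 7) were both on in mock SK-N-SH cells at 0.631 and 3.11, and in PcTF K562 cells DLX5 stood at 1.33 and DLX6 at 0. DLX6-AS1, which overlaps DLX6 on the other strand, stood at 1.18 in mock and 1.23 in PcTF SK-N-SH cells.

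A list of 26 partner genes gave a different count in each comparison, with 2 higher and 5 lower in U-2 OS, 5 and 1 in K562, 3 and 5 in SK-N-SH cells, then 12 and 4 in the PcTF mean against U2OS-ΔTF, by the same 2-fold rule. The shares of all genes higher and lower were 13.4% and 9.18% in U-2 OS, 24.9% and 9.08% in K562, 10.3% and 6.24% in SK-N-SH cells, then 40.4% and 9.84% in the PcTF mean. LMO4, which competes with LIM homeodomain proteins for the LDB cofactor, was at 29.4 FPKM in mock and 8.21 in PcTF U-2 OS cells and 16.3 and 6.16 in SK-N-SH. EYA1, EYA4 and DACH1, which act with SINE-class proteins, were 2-fold or more lower in PcTF U-2 OS cells, EYA1 at 4.89 and 1.91, EYA4 at 1.55 and 0.0430, and DACH1 at 1.53 and 0.510. SIX4 itself was not lower there. LMO1 (1.26 and 0.146) and the corepressor TLE1 (4.77 and 2.14) were lower in PcTF SK-N-SH cells. ISL2, a LIM gene of motor neurons (0.938 and 4.23), and TLE2 (0.822 and 2.08) were higher in PcTF K562 cells. In U2OS-ΔTF and the PcTF mean, PKNOX1, a partner of HOX proteins, was at 2.06 and 6.64, EYA1 at 0.189 and 4.21, DACH1 at 0.584 and 1.97, LDB1 at 10.8 and 23.4, and TLE3 at 2.47 and 5.90. LMO1 at 1.29 and 0.179, LMO2 at 3.10 and 1.47, and ISL2 at 4.98 and 0.416 lay lower in the mean.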

How the data were processed

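RNA was sequenced from 10 libraries of K562, U-2 OS and SK-N-SH cells, of which 9 enter the 4 tables used here, and the remaining library, U-2 OS cells given ΔTF, was not analysed here. The authors prepared single-end libraries from SPIA-amplified cDNA and computed the deposited FPKM per gene on hg19 (GRCh37) with Cuffdiff, after alignment with TopHat2 (version 2.1.0 in the submitters' processing notes). Whether strand was kept is not given in the sources used here. Columns with the authors' own fold changes and p-values were not used.

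From the deposited FPKM, a member was called where its values differed by 2-fold or more, a 0 on one side included. Medians used log2(FPKM + 0.1). Read counts were estimated from the step that 1 read gives in low FPKM values of a library, and 93.4% to 100% of the low values tested were whole multiples of that step within 3%. Reads came out whole for 44 of the 63 members within 0.06 reads and are approximate for 10, and 9 were at 0 in all single libraries. Of the transcript lengths that gave whole reads, the search took the shortest, which gives the fewest reads and so the widest intervals. For genes that are not members, reads were estimated from the canonical transcript length without this search. Shares of members and of all genes with the interval off 0 are therefore not made in the same way. Intervals are exact 95% binomial (Clopper-Pearson) intervals on the ratio of reads and cover counting error only. The level of the 2 U2OS-PcTF libraries was derived by taking the transfected library out of the mean of 3. Of the 13 genes whose derived value came out below 0, 0 were members. The study's methods state 3 replicates for each stable line, while the labels list 2 U2OS-PcTF libraries, 1 U2OS-ΔTF library and the transfected U-2 OS PcTF library for this table, and the derived values rest on the labels. No test between groups was run. The table gives the U2OS-PcTF libraries only within a mean, and a fit over the 3 lines with the line as a block was not made. The steps were tested on simulated data.

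Some genes that enter the counts are not reported here by name and are left out of the figures. The members, gene lists and rules were chosen with earlier results of these data known. Named are the 25 members with the highest FPKM, the 5 largest rises and 5 largest falls of log2(FPKM + 0.1) in each comparison among members at 1 FPKM or more in either column, members called in several lines, and partners at 1 FPKM or more that differed 2-fold. ALX4, LHX1, NKX6-1, PRRX2, SIX5 and TLX1 are also named where their read interval lay off 0, which was chosen after seeing the data. Upstream sequences are from RefSeq, build GRCh38.p14, and were matched by symbol. Alternatives were other pseudocounts, a filter on low values, centring, the stable libraries alone and other detection limits. Python 3.11.15, pandas 2.3.3, numpy 2.4.6, scipy 1.17.1 and matplotlib 3.10.9 were used.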

Additional observations from a re-analysis of the deposited data

Results flagged for a closer look

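MEIS1 was called in opposite directions in 2 lines. Its log2(FPKM + 0.1) difference, PcTF minus mock, was -1.01 in U-2 OS and 1.77 in K562, and both read intervals lie off 0. With 1 library per group the difference between the lines was not tested.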

How the results depend on the processing

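With 1 FPKM added to both values, members higher and lower numbered 1 and 2 in U-2 OS, 4 and 0 in K562 and 0 and 1 in SK-N-SH, with 7 higher in the PcTF mean against U2OS-ΔTF and 5 lower in U2OS-ΔTF against mock. With 0.1 FPKM added, 5 were higher in SK-N-SH and 19 in the PcTF mean. Among members at 1 FPKM or more in either column the counts were 3 and 5 in U-2 OS, 4 and 0 in K562 and 1 and 2 in SK-N-SH, 10 higher in the mean and 7 lower in U2OS-ΔTF against mock, with medians of -0.0169 in SK-N-SH and 0.0684 in U-2 OS. Centring on all genes gave 5 lower in K562 and medians of -0.0882 in SK-N-SH, -0.29 in K562 and -0.00054 in the PcTF mean. With the read interval off 0, chosen after seeing the data, counts were 2 and 5 in U-2 OS, 8 and 0 in K562, 1 and 3 in SK-N-SH, and 11 lower in U2OS-ΔTF against mock. Without the transfected library, 31 were higher and 6 lower in the stable mean, with a median of 0.35. At 0.1 FPKM or more and above 0, members detected numbered 43 and 44 in mock and 40 and 41 in PcTF U-2 OS cells, 24 and 26, and 25 and 33 in SK-N-SH, 18 and 18, and 32 and 34 in K562, and 42 and 52 in the PcTF mean. Of all alternative values 34 stayed within the limit set for them and 45 moved. The filter leaves fewer members to call, and calls on a handful of reads are limited by depth. No paired analysis was possible because the groups compared within a line share fewer than 2 replicate numbers. A fit over the PcTF and mock pairs of the 3 lines, which leaves residual degrees of freedom, was not run.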
